A study of Mus musculus with 24 samples.

Results

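Genes for the enzymes that write and erase methylation on histone tails were examined among the RNAs recovered with STAU2 from the embryonic mouse cortex. The members were the protein-coding genes whose symbols begin with Kmt2, Kmt5, Setd, Kdm, Ezh, Ehmt, Suv39 or Nsd, together with Ash1l, Dot1l, Eed, Suz12 and Jarid2. There were 50 such genes among 21951 protein-coding genes, and 32 of them are writers, partners of writers or other genes of the Setd family and 18 are erasers. Nsdhl, a sterol dehydrogenase gene, begins with the same letters and was left out for its function. It had 1 peak, in the coding sequence at E15.5 (rank 1939 of 10265).

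The study compared RNA immunoprecipitated with an antibody to STAU2 with RNA of the input lysate on 4 embryonic days, of which E11.5 was the first, E13.5 and E15.5 followed and E17.5 was the last. Each of the 8 groups had 3 libraries, and each library started from the cortices of a whole pooled litter. All groups were unmanipulated tissue as far as the labels say, and strain and sex are not given there. A mock precipitation with an antibody to T7 was read by qPCR only and is not analysed here.

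Histone methylation is set by methyltransferases, most of them with a SET domain, and removed by demethylases of the flavin-dependent LSD1 family or the JmjC family. Methylation of H3K4 and H3K36 is associated with transcribed genes, and that of H3K9 and H3K27 with silent ones. In the developing cortex these enzymes act on the choice between progenitor division and neuronal differentiation, and loss of function of several of them causes neurodevelopmental disorders. STAU2 binds double-stranded stretches of RNA and acts in the transport and stability of messenger RNAs.

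The values are peaks, stretches of the genome that the authors listed once per day and strand, so each day had 1 list behind its 3 RIP and 3 input libraries and no replicate error can be given. From the first day to the last, the lists held 6530, 5871, 10265 and 6341 peaks, and 4 values in a row below are always in that order of days. The lists do not say in which direction RIP and input differ at a peak, and the depth is unknown. A rank gives the place of a peak among all peaks of its day by the authors' p-value, with 1 the smallest p. A signal is the authors' value per peak, in a scale the sources used here do not give. It is used only within a gene and day. Coordinates are GRCm38 (mm10). Of the marker genes of the tissue, 9 of 13 for cortex had an exonic peak on any day. So did 7 of 9 markers of vessels and meninges, 6 of them at E13.5, 0 of 5 of blood and 1 of 5 of microglia. Over all protein-coding genes, 30.1% had one on any day and 11.8% at E13.5. These marker sets were not matched for length. Their median exonic length was 4155 nt for cortex, 6563 nt for vessels and meninges, 768 nt for blood and 2546 nt for microglia. A marker without a peak is not shown to be absent, since the lists hold no levels. The part of those cells in the results below was not tested, and fewer cells of a type cannot be told apart from less RNA per cell.

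A few positions carried peaks on 2 days within the coding sequence (CDS) of a member, and their sequences are shown because the same stretch was listed from separate litters. Each is the RNA-sense strand from 5′ to 3′ over both peaks, and capitals mark the bases under the peaks of both days. The first 2 lie in exon 11 of Kdm6b, a demethylase of H3K27, on the minus strand. The next lies in exon 11 of Kmt2d, a methyltransferase of H3K4 at enhancers, also on the minus strand. The last 2 lie on the plus strand, in the last exon of Kmt2e, a reader of methylated H3K4, and in exon 7 of Setd5, a chromatin regulator linked to intellectual disability.
Kdm6b, E11.5 and E13.5, chr11:69405060-69405265: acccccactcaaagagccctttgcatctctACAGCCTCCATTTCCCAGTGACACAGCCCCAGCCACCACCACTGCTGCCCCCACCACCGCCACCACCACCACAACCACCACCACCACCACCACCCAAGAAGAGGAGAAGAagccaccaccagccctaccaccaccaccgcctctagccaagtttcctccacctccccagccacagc
Kdm6b, E13.5 and E17.5, chr11:69405544-69405734: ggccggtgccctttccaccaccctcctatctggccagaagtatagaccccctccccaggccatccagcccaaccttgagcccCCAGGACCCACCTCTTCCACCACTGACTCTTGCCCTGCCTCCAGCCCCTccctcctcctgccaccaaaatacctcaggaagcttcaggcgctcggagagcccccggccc
Kmt2d, E13.5 and E15.5, chr15:98863423-98863632: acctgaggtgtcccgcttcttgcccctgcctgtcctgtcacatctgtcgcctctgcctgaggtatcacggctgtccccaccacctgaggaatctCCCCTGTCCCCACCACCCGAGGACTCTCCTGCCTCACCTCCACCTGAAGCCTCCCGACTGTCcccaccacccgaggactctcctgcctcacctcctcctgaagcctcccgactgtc
Kmt2e, E11.5 and E15.5, chr5:23502069-23502247: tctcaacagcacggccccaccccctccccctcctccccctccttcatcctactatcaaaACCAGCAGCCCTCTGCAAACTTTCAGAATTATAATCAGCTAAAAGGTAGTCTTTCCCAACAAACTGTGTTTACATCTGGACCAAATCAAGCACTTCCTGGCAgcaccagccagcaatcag
Setd5, E11.5 and E13.5, chr6:113114937-113115068: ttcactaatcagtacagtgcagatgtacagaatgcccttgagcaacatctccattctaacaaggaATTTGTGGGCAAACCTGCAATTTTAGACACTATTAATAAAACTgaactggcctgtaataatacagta

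The 4 members' CDS peaks with the best rank on any day are shown next, with in-frame codons of the form CCN, all of which encode proline, in capitals. The peak of Kmt2d at E11.5 covered codons 853 to 881 on the minus strand. That of Setdb1, a methyltransferase of H3K9, covered codons 494 to 512 on the minus strand at E15.5. That of Nsd1, a methyltransferase of H3K36, covered codons 2089 to 2106 on the plus strand at E11.5. That of Kmt2c, the paralog of Kmt2d, covered codons 1875 to 1908 on the minus strand at E15.5.
Kmt2d, rank 136 of 6530, chr15:98862825-98862910: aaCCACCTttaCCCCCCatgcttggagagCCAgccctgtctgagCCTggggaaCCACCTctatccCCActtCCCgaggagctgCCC
Setdb1, rank 153 of 10265, chr3:95339951-95340005: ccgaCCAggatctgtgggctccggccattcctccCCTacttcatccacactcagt
Nsd1, rank 231 of 6530, chr13:55310342-55310392: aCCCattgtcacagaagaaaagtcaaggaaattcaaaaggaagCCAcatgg
Kmt2c, rank 451 of 10265, chr5:25315387-25315487: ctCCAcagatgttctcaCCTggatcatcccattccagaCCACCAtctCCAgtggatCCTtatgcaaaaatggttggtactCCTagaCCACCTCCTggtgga

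In all, 36 of the 50 members (72.0%, exact Clopper-Pearson 95% interval 57.5 to 83.8, counting error only) had an exonic peak on at least 1 day, beside 30.1% of all protein-coding genes. At E11.5 the count was 16 members (32.0%) beside 9.09% of all genes. At E13.5 it was 19 (38.0%) beside 11.8%. At E15.5, the day with the longest list, it was 32 (64.0%) beside 19.9%. At E17.5 it was 17 (34.0%) beside 13.6%. On every day the share of members was above that of all genes, between 2.51 and 3.52 times, and no test was made of it. The lists hold no levels, so genes without RNA in the cortex stay in this background and in the length-matched one below. A peak on all 4 days was listed for 6 members (12%, interval 4.53 to 24.3) and for 1.77% of all genes.

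Members are long genes, with a median of 8170 nt of exon beside 3498 nt over all protein-coding genes, and a long gene has more room for a peak. Among the 25 members of at least 8170 nt, 10, 14, 20 and 9 had a peak. The shares of all protein-coding genes of that length were 17.3%, 17.6%, 31.2% and 18.3%, so the members' shares were 1.97 to 3.17 times these. On any day the long members had a peak in 20 of 25 cases beside 46.8% of genes as long, and on all 4 days in 4 of 25 beside 2.62%. The members with a peak had a median of 9150 nt of exon and those without one 6244 nt, with overlapping ranges (3828 to 20291 and 1903 to 14838).

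**Figure D1:**
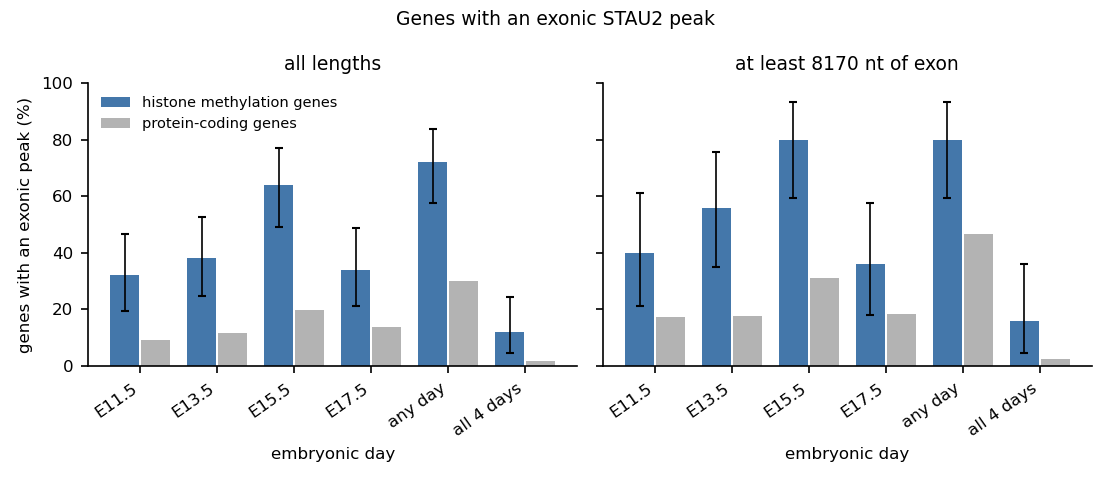
Percentage of genes with an exonic peak by day, for the members (blue, with exact 95% intervals) and all protein-coding genes (grey), over all lengths (50 members, left) and for genes of at least 8170 nt of exon (25 members, right). The blue bars stand above the grey ones in each pair, with the highest daily values at E15.5.

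Together the members held 203 exonic peaks, 47, 40, 89 and 27 by day. Several peaks in 1 gene were common. At E15.5, 20 of the 32 members with a peak had 2 or more (62.5%, beside 40.9% of all genes with a peak). At E11.5, 9 of 16 did (56.2% beside 34.8%), at E13.5, 10 of 19 (52.6% beside 29.7%), and at E17.5, 6 of 17 (35.3% beside 37.3%). These shares are not matched for exonic length and include the runs of near-equal signal described below. The median place of the members' exonic peaks was at 51.1%, 51.9%, 45.5% and 61.0% of the day's list. For exonic peaks of all protein-coding genes it was 51.4%, 49.5%, 49.0% and 49.0%. The members' peaks were thus near the middle on 3 days and lower at E17.5. The strongest by day lay in Kmt2d (E11.5), Nsd3 (E13.5, rank 156), Setd5 (E15.5, rank 52) and Kdm6b (E17.5, rank 426).

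**Figure D2:**
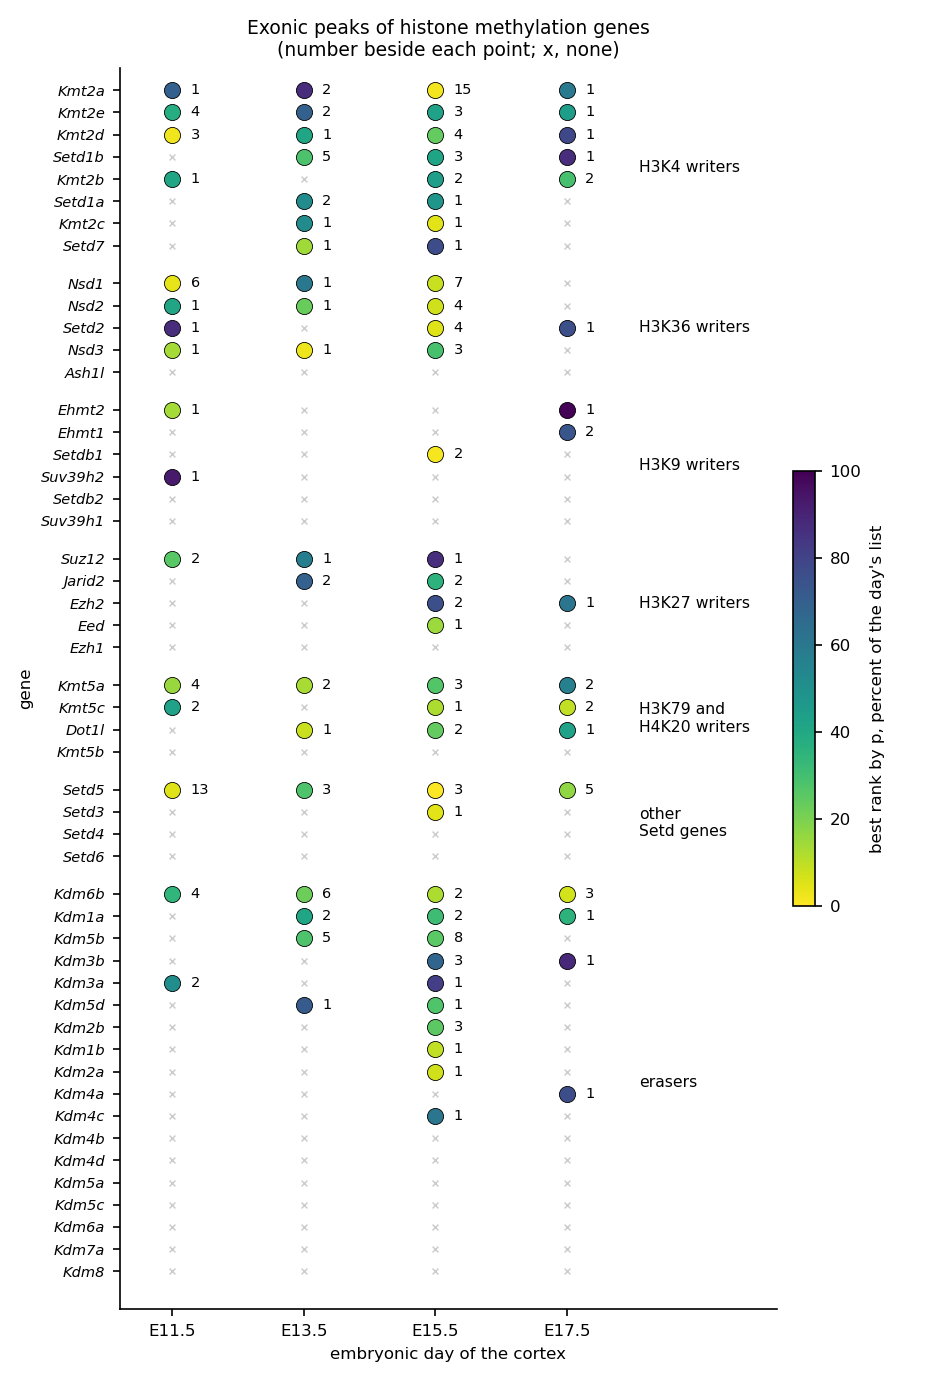
Number of exonic peaks of each member (rows, by role) at each embryonic day (columns), with the colour of a point giving its best rank as a percentage of the day's list and a cross marking no peak. Kmt2a, Kmt2d, Kmt2e, Kmt5a, Setd5 and Kdm6b have points in all 4 columns, and 14 genes have none.

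The genes named for H3K4 methylation, here the Kmt2 and Setd1 genes and Setd7, held 59 peaks. All 8 had a peak on some day (beside 30.1% of all protein-coding genes and 46.8% of those of at least 8170 nt of exon), and 4, 7, 8 and 5 had one by day (beside 9.09%, 11.8%, 19.9% and 13.6% of all). Kmt2e is grouped with them by its name, although its product is known as a reader of the mark. Kmt2a, Kmt2d and Kmt2e were listed on all 4 days, Setd1b and Kmt2b on 3, and Setd1a, Kmt2c and Setd7 at E13.5 and E15.5. Kmt2c and Kmt2d are the longest members, with 20291 and 19931 nt of exon.

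Kmt2d had 3, 1, 4 and 1 peaks by day, and all 9 lay in the CDS, in a transcript whose 3′ UTR has 2831 nt. Exon 11 held 6 of the 9. Those of E11.5 covered codons 455 to 476 (chr15:98864041-98864103, rank 3439), 497 to 535 (chr15:98863864-98863977, rank 2176) and 853 to 881 (rank 136). The peak of E13.5 (chr15:98863477-98863538, rank 2404 of 5871) fell wholly inside the peak of E15.5 at codons 612 to 682 (rank 2637). The peak of E17.5 was in the next exon, at codons 966 to 985 (chr15:98862421-98862479, rank 4963 of 6341). So 7 of the 9 peaks lay between codons 455 and 985 of a reading frame of 5588 codons, and the other two, of E15.5, lay in exon 32 (codons 2140 to 2156 and 2422 to 2446).

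Kmt2a encodes the trithorax-type methyltransferase of Hox loci. It had 1, 2, 15 and 1 peaks by day, so 15 of its 19 peaks came from E15.5. Of those 15, 8 had their midpoint in the 3′ UTR, 5 in the CDS and 2 in introns. The best was in the 3′ UTR at chr9:44806125-44806336 (rank 193 of 10265). The only peaks of E11.5 (chr9:44805772-44805821, rank 4563) and E17.5 (chr9:44806446-44806520, rank 3754) were in the same 3′ UTR. The E11.5 peak shared 1 base with a peak of E15.5, and the E17.5 peak overlapped none. At E13.5 the gene had a CDS peak (chr9:44849071-44849198, codons 451 to 494, rank 5430 of 5871) and 1 with its midpoint in an intron (rank 5135).

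Kmt2e had 4, 2, 3 and 1 peaks, and 9 of the 10 lay in its last exon. The E11.5 and E15.5 peaks shown above shared 102 nt, with ranks of 2507 of 6530 and 8130 of 10265. In the 3′ UTR, the peaks of E15.5 (chr5:23503459-23503688, rank 4365) and E17.5 (chr5:23503650-23503755, rank 2845) shared 39 nt. From E11.5 to E17.5 the last exon was therefore listed on every day, but no single base was.

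Setd1b, a methyltransferase that sets H3K4 trimethylation, had 0, 5, 3 and 1 peaks. All 5 of E13.5 were in the CDS, the best at chr5:123147651-123147715 (codons 253 to 275, rank 1659 of 5871). At E17.5 its 1 peak was in the 3′ UTR (chr5:123166169-123166258, rank 5546 of 6341). Kmt2b, the paralog of Kmt2a, had a CDS peak at E11.5 (chr7:30585193-30585240, rank 2663). Its peaks of E15.5 and E17.5 had their midpoints in introns, the best at chr7:30580273-30580441 (rank 1861 of 6341, E17.5). Kmt2c had CDS peaks at E13.5 (chr5:25313360-25313430, rank 3046) and E15.5 (rank 451). Setd7, which adds a single methyl group to H3K4, had 3′ UTR peaks at E13.5 (chr3:51515788-51515838, rank 842 of 5871) and E15.5 (chr3:51517794-51517867, rank 7874), which did not overlap. Most peaks of this role thus lay in coding exons, with Kmt2a and Setd7 the genes where 3′ UTR peaks prevailed.

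**Figure D3:**
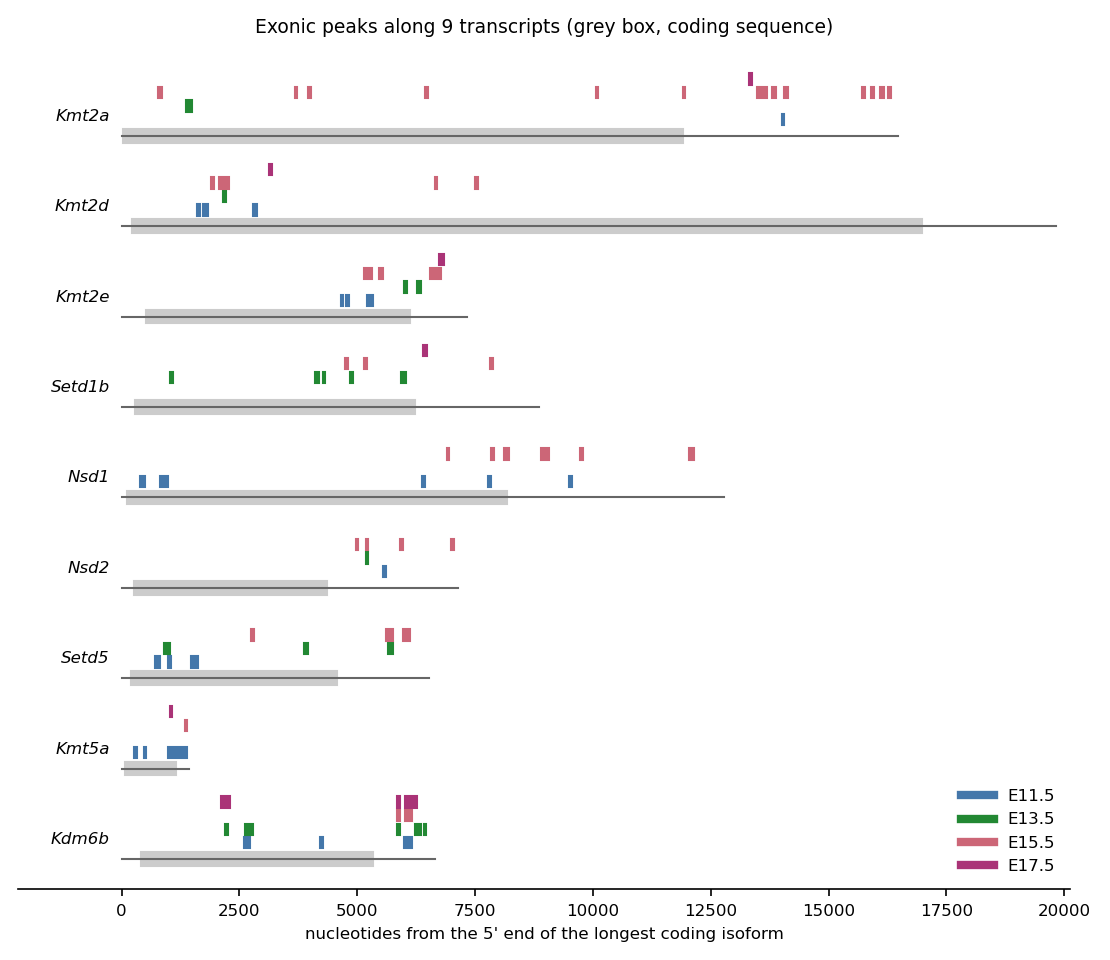
Peaks (coloured blocks, 1 colour and level per day) along the longest coding isoform of 9 members, in nucleotides from its 5′ end, with the coding sequence as a grey box. Peaks without a midpoint in an exon of that isoform are not drawn, among them those of Kmt5a at E13.5, and some blocks show part of a peak only. Kmt2d blocks all lie over the coding box, Nsd2 blocks all lie beyond it, and Kdm6b blocks form a coding and a 3′ UTR cluster.

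Of the 5 H3K36 writers, 4 had a peak: Nsd1, Nsd2 and Nsd3, which set H3K36 dimethylation, and Setd2, which sets trimethylation. The share was 30.1% over all protein-coding genes and 46.8% over those of at least 8170 nt of exon. These 5 genes have 10754 to 17483 nt. Ash1l had no exonic peak on any day, with 14838 nt of exon. Its 6 peaks of E11.5 touched introns only. The 3 Nsd genes were listed on the first 3 days and not at E17.5. Setd2 was the only H3K36 writer with an E17.5 peak (1 of 5, beside 13.6% of all genes and 18.3% of the long ones).

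Nsd1 had 6, 1, 7 and 0 peaks by day. At E11.5, 4 of its 6 peaks were in the CDS, and at E15.5, 3 of 7 were in the CDS and 3 in the 3′ UTR. Its E13.5 peak had its midpoint in an intron (chr13:55277641-55277720, rank 3523). In Nsd2 the 6 peaks all lay in the 3′ UTR. Those of E13.5 (chr5:33896001-33896059, rank 1370) and E15.5 (chr5:33896003-33896060, rank 2294) shared 57 nt, the 30 in the middle of which read, from chr5:33896017-33896046 on the plus strand, gggtggcacaaggcagcctgaaacctaggc. The E11.5 peak was further downstream (chr5:33896377-33896429, rank 2691). The ends of the matching peaks thus differed by 2 nt on one side and 1 nt on the other.

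Nsd3 had its best peaks far along a 3′ UTR of 5270 nt: at E11.5 chr8:25718263-25718312 (rank 889 of 6530) and at E13.5 chr8:25718885-25718937 (rank 156 of 5871). They did not overlap. At E15.5 the best of its 3 peaks was in the CDS at codons 92 to 142 (chr8:25640896-25641046, rank 2984). Setd2 had 1, 0, 4 and 1 peaks. The best, at E15.5, was 2559 nt wide with its midpoint in an intron (chr9:110614918-110617476, rank 488). A peak at the end of its CDS at E17.5 (chr9:110617916-110617974, rank 4819) shared 2 nt with a 3′ UTR peak of E15.5 (chr9:110617973-110618024, rank 1109).

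H3K9 writers held 7 peaks in 4 of 6 genes (beside 30.1% of all genes on any day), and none had a peak at E13.5 (0 of 6, beside 11.8% of all genes). Setdb1 had 2 peaks, at E15.5 only, and the CDS peak shown above ranked 153. Ehmt2, which sets H3K9 dimethylation as a dimer with Ehmt1, had a CDS peak at E11.5 (chr17:34912639-34912728, rank 881) and at E17.5 a peak with an intronic midpoint near the end of the list (rank 6309 of 6341). Ehmt1 had its peaks at E17.5 only, the best in the 3′ UTR (chr2:24791167-24791297, rank 4652). Suv39h2, an enzyme of pericentric heterochromatin, had 1 peak, at E11.5 in the 3′ UTR (rank 6094 of 6530). Suv39h1 and Setdb2 had none. Calls in this role were mostly on 1 day and of low rank, Setdb1 and the E11.5 peak of Ehmt2 aside.

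The H3K27 writers form Polycomb repressive complex PRC2, with Ezh1 or Ezh2 as its enzyme, Eed and Suz12 as core subunits and Jarid2 as a cofactor. Suz12 had the most days of these, with 2, 1, 1 and 0 peaks by day. Its best peak was in the CDS at E11.5 (chr11:80025219-80025272, codons 451 to 468, rank 1707). Its 3′ UTR peaks of E13.5 (chr11:80033777-80033839, rank 3381) and E15.5 (chr11:80033735-80033792, rank 8871) shared 16 nt. For Ezh2, a CDS peak of E17.5 (chr6:47530499-47530593, rank 3867) shared 57 nt with a peak of 1319 nt at E15.5 (rank 7780). Eed had 1 peak, at E15.5 in the 3′ UTR (chr7:89954820-89954881, rank 1534). Jarid2 had CDS peaks at E13.5, the better at rank 4066, and peaks with intronic midpoints at E15.5. Of these E15.5 peaks, 1 was 24391 nt wide with 0.808% of it in exons, and 1 was 379 nt wide with 11.3%. With at least 50% of a peak required in exons, Jarid2 had no call at E15.5. Ezh1 had none. So 4 of 5 genes had a peak on any day, beside 30.1% of all protein-coding genes. All 4 had one at E15.5, the day with the longest list, beside 4365 of the 6618 protein-coding genes with a peak.

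Among the writers of H3K79 and H4K20, Kmt5a stood on all 4 days, Kmt5c and Dot1l on 3, and Kmt5b on none. Over all protein-coding genes, 30.1% had a peak on any day and 1.77% on all 4. Kmt5a sets H4K20 monomethylation, a mark of mitotic chromatin. It had 4, 2, 3 and 2 peaks, 8 of 11 in the 3′ UTR. A stretch of that 3′ UTR, chr5:124462122-124462258, was covered at E11.5 (rank 5713), E13.5 (rank 5323) and E15.5 (rank 3180), with 40 nt common to the 3 days. A second stretch (chr5:124461797-124461989) was covered at E15.5 and E17.5 with 98 nt in common. Its best-ranked peak, of E13.5 (chr5:124461418-124461516, rank 777), overlapped none of the other days. The 3′ UTR was thus covered on each of the 4 days, though at no place on all of them. Both stretches and both E13.5 peaks lie outside the longest coding isoform, whose 3′ UTR has 265 nt, so on that isoform Kmt5a had no peak at E13.5.

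Kmt5c, which sets H4K20 trimethylation, was the 1 member with peaks in the 5′ UTR, 3 in number. The peaks of E11.5 (chr7:4740423-4740675, rank 2756) and E15.5 (chr7:4740424-4740665, rank 1269) shared 242 nt, the longest common stretch in any member. At E17.5 both of its peaks were in the CDS, the better at codons 337 to 368 (chr7:4746493-4746587, rank 594 of 6341). Dot1l, the H3K79 methyltransferase, had a 3′ UTR peak at E13.5 (chr10:80795147-80795209, rank 485 of 5871). It had CDS peaks at E15.5 (chr10:80784748-80784798, rank 2475) and E17.5 (chr10:80791503-80791551, rank 2685), at different places.

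Of the other Setd genes, Setd5 had 24 peaks, with 13, 3, 3 and 5 by day, the most of any member only when runs of near-equal signal are counted. Without them it had 13, fewer than Kmt2a (19), Kdm6b (15) and Nsd1 (14). Its 3′ UTR peak of E15.5 (chr6:113152499-113152653, rank 52 of 10265) was the best-ranked of all 203, and 104 nt of it were also under a peak of E13.5 (rank 1960). The 30 bases in the middle of the shared stretch, chr6:113152587-113152616 on the plus strand, read gagccctgaagccagcccaggtggggtaca. In the CDS, the peaks of E11.5 and E13.5 shown above shared 43 nt (ranks 5447 and 2747). At E11.5 its best peak had an intronic midpoint (chr6:113115642-113116008, rank 309). Setd3, whose product methylates a histidine of actin, had 1 peak, in the CDS at E15.5 (chr12:108112172-108112223, rank 461). Setd4 and Setd6 had none, so 2 of 4 of these genes had a peak on any day, beside 30.1% of all protein-coding genes.

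The other peaks of Setd5 need a separate description. At E17.5 all 5 exonic peaks lay in 1 run of 12 neighbouring peaks over 3208 nt whose signals were 4.25 to 4.4, and their midpoints were in introns or in exons of retained-intron transcripts. At E11.5 a run of 5 such peaks had signals of 23.4 to 24.5. Runs of at least 4 neighbouring peaks of 1 day with signals within 5% of each other occurred 12 times, in 7 members, and held 72 peaks, 23 of them exonic. A further count, of peaks within members that touched introns only, gave 70. The runs held 19 of the members' 22 peaks in exons of noncoding isoforms, among them 6 of Kdm5b at E15.5 (signals 15.4 to 16.0). Without peaks in such runs, an alternative added after the data were seen, Setd5 lost its E17.5 call and Kdm3a and Setd2 their E11.5 calls. In that setting 5 members remained on all 4 days, and the daily counts were 14, 19, 32 and 16.

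Erasers had 49 peaks in 11 of 18 genes (61.1%, beside 30.1% of all protein-coding genes on any day). By day, 2, 4, 10 and 4 genes had one (11.1%, 22.2%, 55.6% and 22.2%). The shares over all protein-coding genes were 9.09%, 11.8%, 19.9% and 13.6%, so the erasers at E11.5 were near that background. Kdm6b, which removes methylation from H3K27, was the only one on all 4 days, with 4, 6, 2 and 3 peaks. A 3′ UTR stretch, chr11:69398812-69399169 on the minus strand, was covered by overlapping peaks on all 4 days, although no base lay under all of them. The adjoining stretch was nearly identical on 3 days: chr11:69399257-69399325 at E13.5 (rank 4279), chr11:69399257-69399321 at E15.5 (rank 2212) and chr11:69399259-69399322 at E17.5 (rank 426). These 3 peaks shared 63 nt, and the 30 in the middle, chr11:69399276-69399305, read tatatgtctcttgtttattcacttggttat. Its other recurrent places were the 2 CDS stretches printed above, where the ranks were 4842 at E11.5 and 1315 at E13.5 for the first, and 1958 at E13.5 and 712 at E17.5 for the second. Kdm6b was the member with the most recurrent positions, 4, together with peaks on every day at a length of 6954 nt of exon, below the members' median.

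Kdm1a, or LSD1, which demethylates H3K4, had 0, 2, 2 and 1 peaks by day. Its CDS peak of E15.5 (chr4:136551941-136551991, codons 773 to 789, rank 3179) fell inside a peak of 1259 nt at E17.5 (chr4:136550748-136552006, rank 2260). That wider peak had its midpoint in an intron. Kdm5b, which demethylates H3K4, had 5 peaks at E13.5 and 8 at E15.5, of which 1 was in the 3′ UTR and none in the CDS. Kdm5d, its Y-linked relative, had a CDS peak at E13.5 (rank 4203) and a 3′ UTR peak at E15.5 (rank 2845), while the X-linked Kdm5c had none. Kdm3a and Kdm3b, demethylases of H3K9, had 3 and 4 peaks on 2 days each. Both E11.5 peaks of Kdm3a lay in a run of near-equal signal, and without it the gene had 1 peak, at E15.5. Of the Kdm3b peaks at E15.5, 2 had only 1.08% and 25.8% of their width in exons.

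Peaks on 1 day only were listed for Kdm1b, Kdm2a, Kdm2b and Kdm4c at E15.5 and for Kdm4a at E17.5. Of these, Kdm2a (chr19:4318760-4318829, rank 722) and Kdm1b (chr13:47084298-47084373, rank 972) ranked best, both in the 3′ UTR. The E15.5 list, the longest, thus held 10 of the 11 erasers with a peak, beside 4365 of the 6618 protein-coding genes with a peak. No exonic peak was listed for 7 erasers: Kdm4b, Kdm4d, Kdm5a, Kdm5c, Kdm6a, Kdm7a and Kdm8. Kdm5a and Kdm7a have 3′ UTRs of 5384 and 6591 nt, among the longest of the members. Kdm6a, the X-linked paralog of Kdm6b, has 8383 nt of exon.

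By the part of the transcript under the peak midpoint, 69 of the members' 171 exonic midpoints lay in the 3′ UTR (40.4%, interval 32.9 to 48.1), beside 56.9% over all protein-coding genes. In the CDS lay 77 (45.0%, interval 37.4 to 52.8, beside 35.3%), and in exons of noncoding isoforms 22 (12.9% beside 5.6%). The 3′ UTR share of the members was 24.4%, 36.4%, 51.3% and 38.1% by day, with 44.2%, 56.2%, 60.6% and 59.7% over all genes. The members' intervals reached the value of all genes at E15.5 (39.6 to 63.0) and E17.5 (18.1 to 61.6) and stayed below it at E11.5 (12.4 to 40.3) and E13.5 (20.4 to 54.9). Peaks of 1 gene are not independent, so the intervals are too narrow. With 1 peak per gene at E11.5 the share was 42.9% of 14 beside 46.1%. In the longest isoforms of the members with a peak, 27.3% of the nucleotides are 3′ UTR and 69.2% CDS, beside 41.2% and 52.3% over all genes with a peak.

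The writers and the other Setd genes had 65 of 130 midpoints in the CDS (50%) and the erasers 12 of 41 (29.3%), with overlapping intervals (41.1 to 58.9 and 16.1 to 45.5). These intervals too treat peaks of 1 gene as independent. In exons of noncoding isoforms lay 11 of the 41 eraser midpoints (26.8%), 9 of Kdm5b and 2 of Kdm3a, most of them in runs of near-equal signal. For the writers and other Setd genes it was 11 of 130 (8.46%), all of Setd5. Among genes with many peaks the parts differed widely. Kmt2d had 9 of 9 in the CDS, Nsd1 7 of 11 and Kmt2e 6 of 9, whereas Kmt5a had 8 of 11 in the 3′ UTR, Kmt2a 10 of 16 and Kdm6b 9 of 14.

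**Figure D4:**
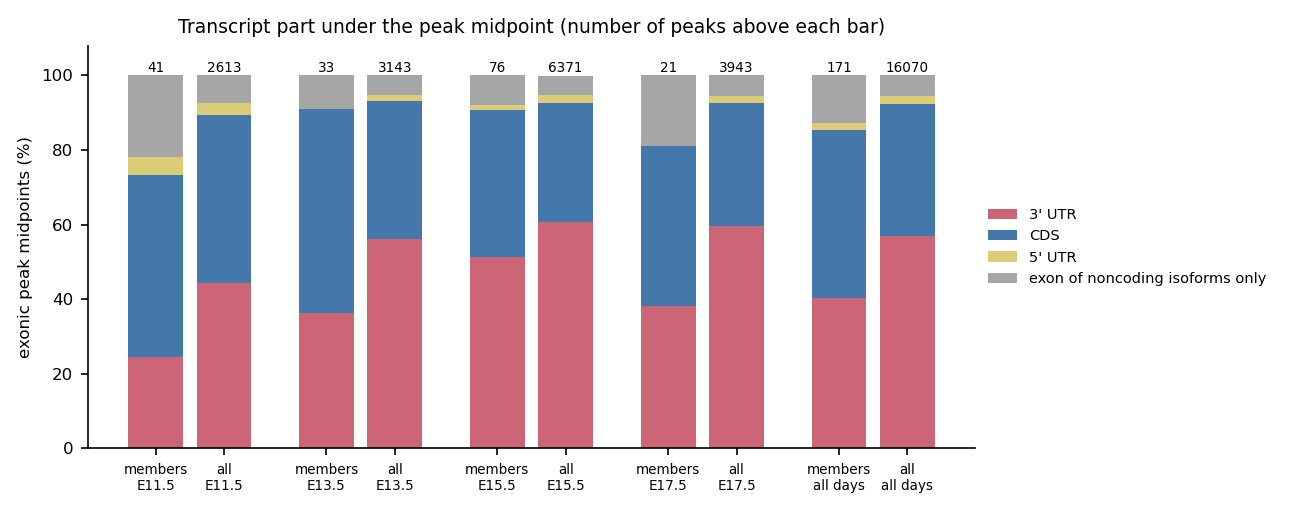
Percentage of exonic peak midpoints in each transcript part by day, for the members and for all protein-coding genes, with the number of midpoints above each bar. The 3′ UTR share (red) of the members is below that of all genes on each day, and the grey share is highest for the members at E11.5 and E17.5.

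Over all members, peaks of 2 or more days overlapped at 19 positions in 12 genes, 15 of them on 2 days, 3 on 3 days and 1 on 4. Of the 189 peaks of members listed on 2 or more days, 44 (23.3%) overlapped a peak of the same gene on another day, beside 37.9% of 15186 such peaks over all protein-coding genes. The genes were Ezh2, Kdm1a, Kdm6b, Kmt2a, Kmt2d, Kmt2e, Kmt5a, Kmt5c, Nsd2, Setd2, Setd5 and Suz12.

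Several of the printed coding sequences are rich in proline codons, a property chosen for counting, with its threshold, after they had been seen. In the 69 CDS peaks that lie in 1 exon stretch of the longest isoform, a median of 11.8% of codons had the form CCN, beside 9.66% in the whole CDS of the same genes. In 4470 such peaks of all protein-coding genes the medians were 6.25% and 6.54%. The CCN share in the peak exceeded that of the own CDS in 45 of 69 member peaks (65.2%) and in 49.8% of all. Over 25% of codons were CCN in 21 member peaks (30.4%) and in 6.22% of all. These 21 came from 8 genes, and 9 of them from Kmt2d, whose peaks ranged from 31.6% to 40.5% beside 13.8% in its CDS. Kdm6b and Setd1b each gave 3, Kmt2c gave 2, and Kmt2a, Kmt2e, Nsd3 and Setd1a each gave 1. By contrast Nsd1, with 6 such peaks, and Setd5, with 5, had no peak over 25%. Such peaks were thus found in 8 of 24 genes, a share not counted over all protein-coding genes. Of the 8, 6 are in the H3K4 group, Kmt2e included, and the others are Kdm6b and Nsd3. Of the counted genes of that group only Kmt2b, with 1 counted peak, had none. Genes with more counted peaks had more chances to pass, and Kmt2d had 9 and Kmt2a, Kmt2e and Setd1b 6 each. Overlapping peaks of 2 days, as in Kmt2d and Kdm6b, were counted separately. No pattern by role is therefore drawn from these counts. In the whole CDS, the counted H3K4 genes had 9.66% (Kmt2a) to 15.9% (Setd1b) of CCN codons, Kdm6b 16.1% and Nsd3 7.4%. The part of this composition in the peaks over 25% was not tested.

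**Figure D5:**
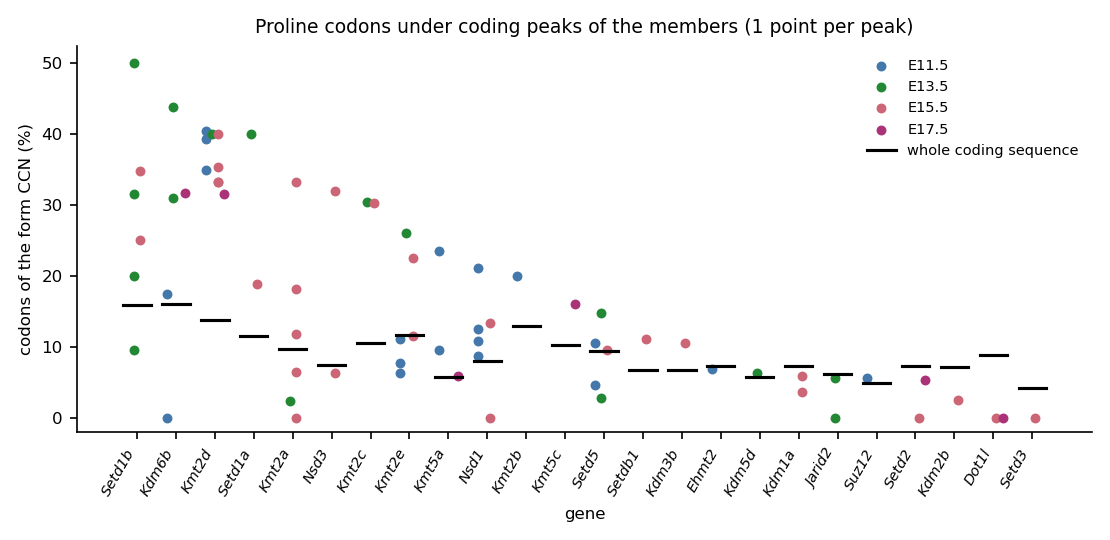
Percentage of codons of the form CCN under each CDS peak (points, coloured by day) for 24 members, with the percentage in the whole coding sequence of the gene as a black line. All 9 points of Kmt2d lie between 31.6% and 40.5%, above its line at 13.8%, and the points of genes at the right lie near or below their lines.

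In base composition, the 74 CDS peaks of up to 300 nt had a median G+C content of 56.9% (range 32.8 to 70.8), above the 52.4% of their own coding sequences, and 46 of 74 (62.2%) exceeded their own gene's value, beside 49.5% of 5137 peaks of all genes. By day, 8 of 19, 13 of 16, 18 of 30 and 7 of 9 did so. In the 3′ UTR the median was 47.0% in 68 member peaks and 47.2% in all. There 43 of 68 (63.2%) exceeded the value of their own gene's 3′ UTR, beside 57.3% of 8749 peaks of all genes. The minimum free energy of folding, which is lower for a more stable predicted structure, had a median of -0.179 kcal/mol per nt in the CDS peaks and -0.212 over all genes, and -0.19 and -0.192 in 3′ UTR peaks. By day the members' median in the CDS was higher than that of all genes at E11.5 (-0.148 and -0.194), E13.5 (-0.172 and -0.203) and E15.5 (-0.183 and -0.222), and lower at E17.5 (-0.246 and -0.228, 9 member peaks). The longest uninterrupted helix predicted was 10 base pairs in the CDS, in Kmt5c at E17.5, and 12 in the 3′ UTRs. Over all genes, with many more peaks, it was 16 and 19. The median longest helix per CDS peak was 5 base pairs in the members and 6 over all genes. For 3′ UTR peaks it was 6 in both.

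The protein partners of these enzymes, and other chromatin genes, were counted from lists chosen with earlier results known, and the shares are to be read beside the 30.1% of all genes with a peak on any day. Of 15 partners of the H3K4 writers in COMPASS-type complexes, 14 had a peak on any day and 0 on all 4 days. Ncoa6, a subunit of the Kmt2c and Kmt2d complexes, had 21 peaks on 3 days and the best rank (66, E15.5). Of 9 PRC2 partners 4 had one, led by Mtf2 (rank 29, E15.5). All 9 partners and readers of the H3K9 writers had one, with Wiz, a partner of Ehmt2, and Atf7ip, a cofactor of Setdb1, on all 4 days. All 9 partners of Kdm1a had one, Rcor2 on all 4 days. Of 28 other methyltransferases and demethylases 13 had one, Smyd2 and Carm1 on all 4 days, and of 18 PRC1 genes 12, Pcgf2 and Yaf2 on all 4 days. Nucleosome remodellers had one in 31 of 33 cases and acetylation genes in 22 of 27. These genes are also long, with median exonic lengths of 4883 to 9583 nt by list, beside 3498 nt over all protein-coding genes.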

How the data were processed

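STAU2 RIP and input RNA of embryonic mouse cortex was sequenced at 4 embryonic days, with 3 libraries per group and 24 in all. The files were 8 peak lists, 1 per day and strand, named alike in the labels of all 6 libraries of a day, so no value per replicate was used. The authors deposited 4 values per peak without column names: a score that falls as q rises, a signal whose scale is not stated, a p-value and a q-value, the last below 0.01 throughout. Among tools, Cufflinks 2.2.1, bedtools 2.17.0, TopHat and TopHat2 2.0.9 appear in the submitters' processing notes. Which caller and test gave the peaks is not given in the sources used here.

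Peaks were assigned to genes of GENCODE vM21 (GRCm38) by an overlap of at least 1 bp with an exon on the same strand, reading the positive lists as plus strand: of peaks over 1 gene, 94.1% to 97.4% lay on that strand. A peak's part was read at its midpoint over all isoforms, CDS before 3′ UTR, 5′ UTR and noncoding exons. A peak over exons of 2 genes counted for each, which touched 2 member peaks. Ranks used the authors' p over both strands of a day. Sequences came from the GENCODE transcripts, and RNAfold 2.7.2 folded peaks of up to 300 nt. No tests were made, and exact 95% intervals cover counting error only. Python 3.11.15, pandas 2.3.3, numpy 2.4.6, scipy 1.17.1 and matplotlib 3.10.9 were used, and the assignment was tested on simulated peaks.

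The members and all gene lists were chosen with earlier results of these data known. Members named with values were those with peaks on 3 or 4 days, the 5 best-ranked members of each day, those with overlapping peaks of 2 days, those on 1 day only, and those with none. Jarid2, Kdm3a, Kdm3b, Kdm5b, Kdm5d and Setd1a fell outside this and were named after their values were seen. Alternatives covered the overlap, peak strength and width, list length, shared genes, isoforms and the rule for parts.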

Additional observations from a re-analysis of the deposited data

How the results depend on the processing

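No paired analysis was possible because the lists hold 1 value per peak and day and none per replicate, and for the same reason no replicate could be left out. Under the settings listed at the outset, the reported one included, members had a peak more often than all genes in 35 of 35 values. The members' 3′ UTR share was below that of all genes in 36 of 36. These settings filter the same peaks, so the values are not independent of each other. Including the alternative added after the data were seen, 67 of 71 values stayed near the reported one (within 1.5 times for a count, within the interval for a share). The rule for a share is a loose one, with an interval as wide as 18.1 to 61.6 at E17.5. With the stronger 50% of peaks the members with a peak fell from 19 to 11 at E13.5, from 17 to 7 at E17.5 and from 6 to 2 on all 4 days. The shares of all genes fell from 11.8% to 6.94%, from 13.6% to 8.41% and from 1.77% to 0.442%. At E17.5 the members thus lost a larger part of their calls than all genes did, and the reason was not tested. With 1 peak per gene and day, so that each gene counts once, the 3′ UTR share at E11.5 was 42.9%, beside 46.1% for all genes. With lists cut to equal length, 26 members had a peak at E15.5 where 32 were reported, beside 13.9% of all genes. On the longest coding isoform alone, 4 members had a peak on all 4 days, and Kmt5a and Setd5 no longer did. Depth is unknown, so a day without a peak does not show that the RNA was not bound.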
